A study of Homo sapiens with 4 samples.

Results

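The USP17L tandem array on chromosome 4 and the segmental duplications at 1q21 that carry NBPF genes are blocks of near-repeated sequence, and the peaks called there for YAP and TEAD1 in the human cell line H69 are described here. Members were the peaks of 3 deposited lists whose centre lay in chr4:9150000-9400000 or chr1:143500000-149650000 (hg19). They numbered 476 of 61551 peaks in all, 124 in the array and 352 at 1q21. By list, they comprised 229 of 10118 peaks found with the Avruch antibody against YAP, 27 of 2471 found with the Santa Cruz antibody against YAP, and 220 of 48962 found with the TEAD1 antibody. Every list came from 1 library of H69 cells fixed with formaldehyde and sonicated, with no treatment or genotype named, and no list has a replicate. The labels call the antibody of the Avruch list only YAP. Its name was taken here from the design text, which gives Avruch and Santa Cruz as the YAP antibodies, by elimination. An unrelated IgG library belongs to the series and was not analysed here. The intervals were chosen by the density of peaks measured in these lists, so counts and distances within them are a description and no test was made of them.

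YAP is a transcriptional coactivator held in check by the Hippo pathway. It has no DNA-binding domain of its own and reaches DNA mainly through TEAD factors, of which TEAD1 is one. USP17L genes encode deubiquitinating enzymes, which remove ubiquitin from other proteins, and lie head to tail in tandem copies. NBPF genes, named for a neuroblastoma breakpoint, encode proteins built from many copies of the Olduvai domain (formerly DUF1220) and multiplied in the human lineage. Their neighbours at 1q21 include the NOTCH2NL genes, partial copies of NOTCH2 that act on progenitors of the cerebral cortex.

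RefSeq names 29 USP17L genes in assembly GRCh38.p14, of which 23 lie on chromosome 4. Of the 23, 19 are protein-coding and 4 are pseudogenes. They follow each other from USP17L10 to USP17L6P with 1 other entry among them, a pseudogene, and USP17L22 is followed directly by USP17L24. The same assembly names 21 NBPF genes on chromosome 1, 14 of them protein-coding. In the order of protein-coding genes, NBPF10 stands between HJV and NOTCH2NLA, NBPF14 between PPIAL4G and NOTCH2NLB, and NBPF19 between NOTCH2NLC and PPIAL4C. NBPF9 follows PDE4DIP, NBPF20 precedes GPR89A, NBPF11 follows GPR89B and NBPF12 precedes PRKAB2. These names come from a build other than that of the peaks, so no peak was assigned to a gene, and the gene content of the intervals was not checked against the peaks.

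RefSeq promoter windows, of 250 bases before and 50 after a start site, were at hand for 12 NBPF genes, with 14 windows in all. The windows were taken by gene name over the whole of chromosome 1, so they are not limited to the 1q21 interval. They are shown because they let the likeness of the copies be read directly. By number of identical bases, the closest of 89 pairs of windows of different genes was NBPF8 and NBPF9, with 294 identical bases in 299 aligned. By share of aligned bases others were closer, such as NBPF10 and the second start site of NBPF14 with 264 in 265. Such likeness was not general among these windows: 9 of the 89 pairs exceeded 90% over at least 150 aligned bases, and the median pair had 88 identical bases. The windows are set by annotated start sites, and some pairs aligned over few bases only. One was NBPF10 and the first start site of NBPF14, with 41 in 41. A low number of identical bases therefore does not show that the copies themselves are unlike. In the lines below, capitals in NBPF8 and NBPF9 mark the 5 bases at which they differ in the alignment, apart from 1 base inserted in NBPF9, and capitals in NBPF14 mark matches to GGAATG, the core of a TEAD motif. All are from build GRCh38.p14 and read 5′ to 3′, at chr1:120414777-120415076 on the plus strand for NBPF8, chr1:149103502-149103801 on the minus strand for NBPF9 and chr1:148595962-148596261 on the minus strand for NBPF14.
NBPF8: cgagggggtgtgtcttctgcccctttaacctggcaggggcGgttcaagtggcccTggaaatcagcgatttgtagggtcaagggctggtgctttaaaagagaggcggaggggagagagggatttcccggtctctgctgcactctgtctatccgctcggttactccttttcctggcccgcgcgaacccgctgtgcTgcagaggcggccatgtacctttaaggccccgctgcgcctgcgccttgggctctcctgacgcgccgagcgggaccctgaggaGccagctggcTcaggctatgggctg
NBPF9: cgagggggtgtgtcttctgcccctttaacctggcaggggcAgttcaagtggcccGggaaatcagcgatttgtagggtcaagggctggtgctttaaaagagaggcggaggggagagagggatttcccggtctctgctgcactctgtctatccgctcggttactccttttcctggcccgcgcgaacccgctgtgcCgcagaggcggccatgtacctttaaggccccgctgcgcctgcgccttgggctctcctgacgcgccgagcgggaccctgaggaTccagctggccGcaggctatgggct
NBPF14: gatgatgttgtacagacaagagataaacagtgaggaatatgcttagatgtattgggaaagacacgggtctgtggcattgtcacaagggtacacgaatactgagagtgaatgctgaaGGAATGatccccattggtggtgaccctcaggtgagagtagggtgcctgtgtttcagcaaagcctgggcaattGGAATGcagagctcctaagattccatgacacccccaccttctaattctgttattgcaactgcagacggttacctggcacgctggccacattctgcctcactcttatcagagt
The NBPF14 window shown and that of NBPF9 had the fewest identical bases of the 89 pairs, 2 in an alignment that reached only 3. Read on both strands, GGAATG occurred in 3 of the 14 NBPF windows, those of NBPF4, NBPF6 and the first start site of NBPF14, against 14.03% of 35116 RefSeq promoter windows. These 3 windows are alike, so they cannot be taken as separate occurrences. The windows of NBPF4 and NBPF6 held 1 match each and that of NBPF14 held 2. Whether the matches lie at aligned places was not checked. NBPF4 shared 242 of 244 aligned bases with NBPF6 and 247 of 277 with NBPF14, and NBPF6 shared 231 of 263 with NBPF14. TGANTCA, an AP-1 motif, was in none of the 14, against 7.709% of all windows.

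In the USP17L array, peaks of the Avruch list stood about every 0.8 kb while the other lists gave a few scattered peaks. The interval of 250 kb held 106 Avruch, 9 Santa Cruz and 9 TEAD1 peaks, which are 1.048% of the Avruch list (Wilson 95% interval 0.867 to 1.265), 0.3642% of the Santa Cruz list (0.1917 to 0.6908) and 0.01838% of the TEAD1 list (0.009671 to 0.03493). All such intervals cover counting error only, and neighbouring peaks are not independent of each other. Among windows of 200 kb on placed chromosomes that held a peak of the list, the array's fullest window ranked first for Avruch, 19 of 1538 for Santa Cruz and 1250 of 11829 for TEAD1. Read depth is not given in the lists, so numbers of peaks do not rank the antibodies or the proteins.

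The Avruch peaks formed 2 blocks. The lower block, chr4:9213414-9272781, held 65 Avruch, 4 Santa Cruz and 6 TEAD1 peaks over 59.37 kb. The upper block, chr4:9324647-9370712, held 41, 5 and 2 peaks over 46.07 kb. Between them lay 51.87 kb without a peak of any list, and whether the assembly is complete there was not analysed. The remaining TEAD1 peak stood apart, 58507.5 bp from the nearest Avruch centre. Beyond the interval, the nearest Avruch peak lay 455.7 kb below its lower edge and 135.7 kb above its upper edge.

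**Figure D1:**
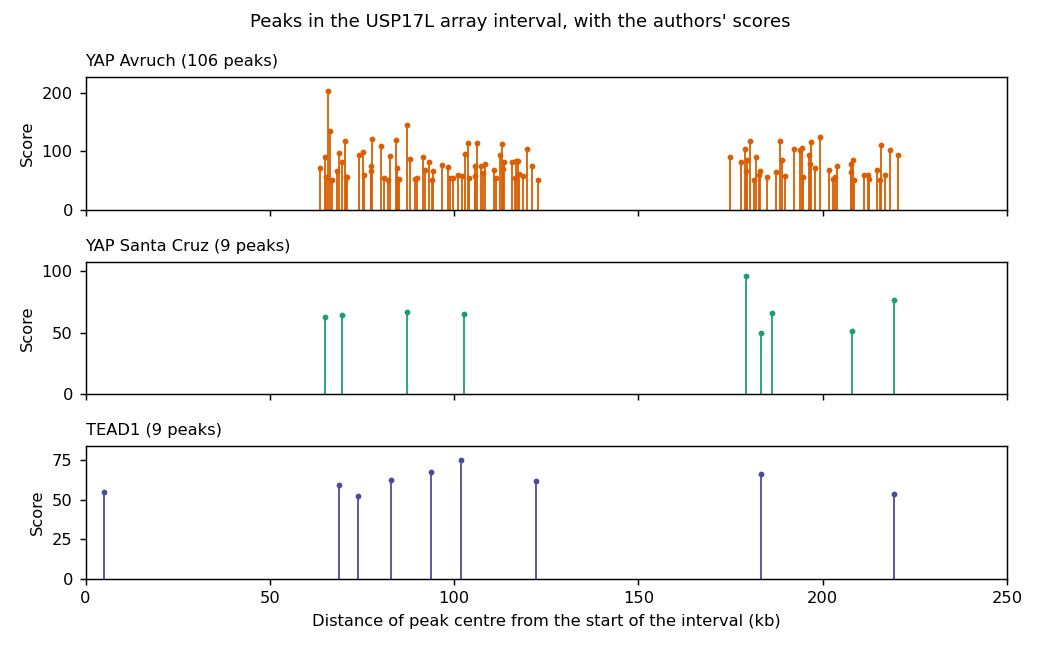
Peaks of each list in the USP17L array interval by distance of the peak centre from the start of the interval (x axis, kb) and the authors' score (y axis, no stated unit, own scale for each list). Each stem is 1 peak, and the 106 Avruch peaks fall into blocks of 65 and 41 peaks on either side of 51.87 kb without a peak.

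Distances between neighbouring Avruch centres in the array ran from 176.5 to 52085.5 bp with a median of 830.5 bp, and 91 of the 105 were under 2 kb (86.67%). Over the rest of the Avruch list the median was 118.2 kb, with 14.53% under 2 kb. The Santa Cruz neighbours were 4709, 17675, 15544, 76320, 4200.5, 2887, 21705.5 and 11540.5 bp apart, in order along the chromosome. The longest of these spans the peak-free stretch. TEAD1 neighbours were 63692, 5347.5, 8879.5, 10693.5, 8327.5, 20140, 61165 and 36193.5 bp apart.

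Some distances between Avruch peaks of the array were more frequent than others. Folding their centres at every distance from 3 to 7 kb gave the greatest alignment at 4740 bp, with a resultant length of 0.2315 on a scale where 1 means that all centres fall at one place of the repeat. This is a low value, so the centres were far from falling at one place. Over all pairs of Avruch peaks within 20 kb, counted in bins of 0.2 kb, the bins holding the first 4 multiples of 4740 bp had 36, 36, 33 and 30 pairs. They were the 4 fullest of the bins, with the highest other bin at 29 and a median of 16 for bins from 1 kb up. The 4 bins together took 8.045% of the 1678 pairs, against 3.745% of 14231 pairs of the rest of the Avruch list on placed chromosomes. The multiples were looked at after the pair distances had been seen.

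The 4 bins were also counted in each block, with another bin as full as any of them in the lower block. The distance of 4740 bp came from the centres of both blocks together. The blocks are thus no independent sign of it. In the lower block the 4 bins held 21, 22, 21 and 21 pairs, beside a median of 10 and a highest other bin of 22. In the upper block they held 15, 14, 12 and 9, beside a median of 5 and a highest other bin of 12. Searched alone, the lower block gave 4700 bp (resultant length 0.2026) and the upper block 4726 bp (0.2867). Folding both blocks together runs across the peak-free stretch, whose length in the assembly was not checked. The joint value thus depends on that length. With peaks up to 1 kb apart joined, 34 Avruch peaks were left and the search gave 3110 bp instead.

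An Avruch peak 4740 bp away, within 100 bp, was present for 56 of the 106 Avruch peaks of the array (52.83%, 43.4 to 62.07). At 2370 bp, which is 1/2 of that distance, 45 had a partner (42.45%, 33.47 to 51.96), so partners were frequent at a distance that is no multiple as well. The blocks spanned 12.52 and 9.719 repeat distances, 22.24 in all. No USP17L gene was placed in a block, so these are not numbers of gene copies. Full repeats of the lower block held 4 to 7 Avruch peaks (median 5), and those of the upper block 3 to 7 (median 4). Within the repeat distance, counted from the first peak of the lower block, 10 of its 65 Avruch peaks lay in the first 395 bp and 0 between 3555 and 3950 bp. Counted from the first peak of the upper block, 9 of 41 lay between 3160 and 3555 bp and 0 between 1185 and 1975 bp. The starting points of these counts differ, so places in the repeat cannot be matched between blocks. The distance of 4740 bp was picked because it gathered these same centres most, and each count starts at a peak. Uneven counts thus follow from that choice and are no sign of a repeat.

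**Figure D2:**
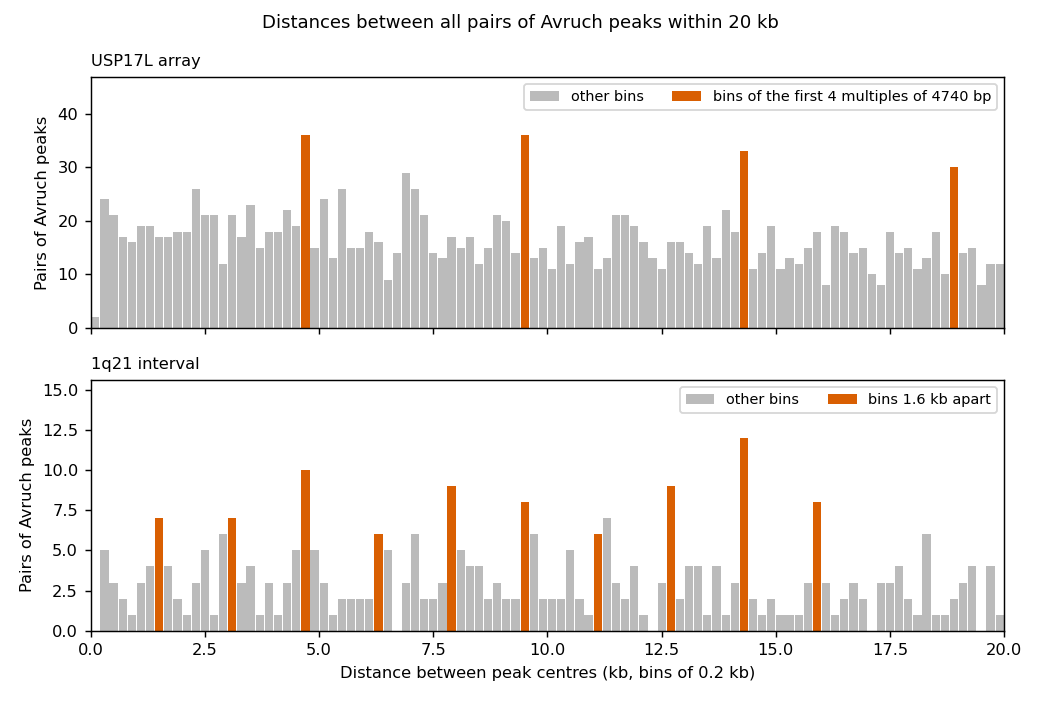
Numbers of pairs of Avruch peaks (y axis) by distance between their centres (x axis, kb, bins of 0.2 kb) in the USP17L array (top) and the 1q21 interval (bottom). Orange bars mark the first 4 multiples of 4740 bp in the array, with 36, 36, 33 and 30 pairs, and 10 bins at steps of 1.6 kb at 1q21, with 6 to 12 pairs, and grey bars are all other bins.

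Avruch peaks of the array were of moderate score and all narrow. Their median score was 73.36 (lowest 50.27, highest 202.52), against 63.69 over the rest of the Avruch list, and 69 of 106 exceeded the list's median. Their median width was 220.5 bp (118 to 481 bp), against 149 bp for the rest. None of the 124 peaks of the array was 1 kb wide or more, where 2.357% of the rest of the Avruch list, 8.164% of the Santa Cruz list and 1.077% of the TEAD1 list were. The scores are the authors' own, have no stated unit and were compared only within a list. The highest-scoring Avruch peak was chr4:9215597-9215985 (score 202.52, place 273 in its list), followed by chr4:9237170-9237392 (145.01) and chr4:9216130-9216391 (134.51).

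The Santa Cruz antibody found peaks at some of the same places. Of its 9 array peaks, 6 shared with an Avruch peak at least 1 bp (66.67%, 35.42 to 87.94), where 28.2% of the whole Santa Cruz list did. They were chr4:9214790-9215005 (score 62.64), chr4:9219513-9219700 (64.2), chr4:9237176-9237387 (66.86), chr4:9252735-9252916 (65.54), chr4:9328913-9329378 (96.24) and chr4:9357880-9357997 (51.15). The first pair of these lay 4709 bp apart. Of the 7 Santa Cruz pairs within 20 kb in the array, 1 fell in the bins of the first 4 multiples of 4740 bp. At chr4:9237176-9237387 the centres of the antibodies' peaks were 0.5 bp apart, and the Avruch peak there was the runner-up by score in the array. Seen from the Avruch list, 8 of 106 peaks overlapped a Santa Cruz peak (7.547%, 3.874 to 14.19), close to the 8.16% of the whole list. Avruch peaks covered 24.4 kb of the array, all of it within the blocks of 59.37 and 46.07 kb, which also held all 9 Santa Cruz peaks. The part of this density in the counts of overlap was not tested.

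Of the 9 TEAD1 peaks of the array, 2 exceeded their list's median score. Their scores ran from 52.62 to 75.05 with a median of 61.65, against 67.11 for the rest of the TEAD1 list, and the best of them, chr4:9251778-9252154, took place 18874. Next came chr4:9243439-9243838 (67.47) and chr4:9333129-9333413 (66.15). Their median width was 330 bp, against 274 bp for the rest. Of the 9, 4 overlapped an Avruch peak (44.44%, 18.88 to 73.33), where 3.11% of the whole TEAD1 list did. Avruch peaks are far denser here than over the whole list. The lower and upper blocks held 6 and 2 of the 9 TEAD1 peaks, with neighbouring Avruch centres a median of 722.25 and 898.25 bp apart. The part of this density in the 44.44% was not tested. The 4 TEAD1 peaks that overlapped were chr4:9218559-9218877, chr4:9223901-9224230, chr4:9243439-9243838 and chr4:9251778-9252154, with overlaps of 292, 306, 26 and 10 bp. From the Avruch side, 4 of 106 peaks overlapped a TEAD1 peak (3.774%, 1.477 to 9.303), where 19.4% of the whole Avruch list did. With 9 TEAD1 peaks beside 106 Avruch peaks, this share had little room to reach 19.4%. It is therefore no sign that the lists met less often here.

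Places where TEAD1 met Santa Cruz peaks were not those where it met Avruch peaks. The TEAD1 peaks chr4:9333129-9333413 and chr4:9369310-9369619 overlapped the Santa Cruz peaks chr4:9333273-9333419 (score 50.13) and chr4:9369372-9369586 (76.82). They are 2 of the 9 TEAD1 peaks, where 1.14% of the whole TEAD1 list overlapped a Santa Cruz peak, and 2 of the 9 Santa Cruz peaks, where 30.9% of that list overlapped a TEAD1 peak. The TEAD1 peaks chr4:9154910-9155142, chr4:9232747-9233143 and chr4:9271928-9272284 and the Santa Cruz peak chr4:9336161-9336305 met no other list. They are 3 of 9 and 1 of 9, where 96.4% of the whole TEAD1 list and 59.8% of the whole Santa Cruz list met neither other list. The part of the Avruch density in these shares was not tested. Of the Avruch peaks, 94 of 106 met neither (88.68%, 81.25 to 93.4), where 77.6% of that list did. The other lists had only 9 peaks each in the array, so most of the 106 could meet none.

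At 1q21, peaks of all lists were spread over megabases, and 68 of the 123 Avruch peaks stood in 5 runs. The interval of 6150 kb held 123 Avruch peaks (1.216% of the list, 1.02 to 1.448), 18 Santa Cruz peaks (0.7285%, 0.4613 to 1.149) and 211 TEAD1 peaks (0.4309%, 0.3767 to 0.493). In steps of 500 kb, Avruch peaks numbered from 1 in the step starting at 146500000 to 31 in that starting at 148000000, leaving out the short last step, which had 0. TEAD1 peaks numbered from 8 to 26 over the same steps. The step with most TEAD1 peaks, starting at 145000000, held 20 Avruch peaks. Just outside the interval, Avruch peaks ended 1.373 kb below its lower edge and began 6.052 kb above its upper edge.

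**Figure D3:**
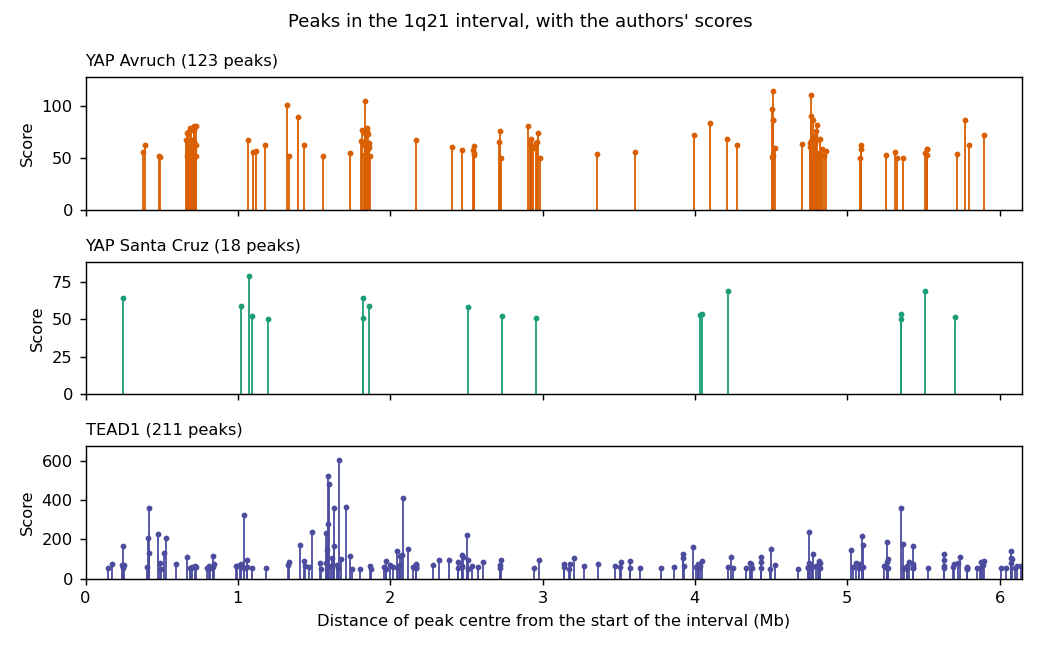
Peaks of each list in the 1q21 interval by distance of the peak centre from the start of the interval (x axis, Mb) and the authors' score (y axis, no stated unit, own scale for each list). Each stem is 1 peak, 68 of the 123 Avruch peaks stand in the 5 fullest runs, and the highest TEAD1 score, 601.64, stands apart from them.

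Neighbouring Avruch centres at 1q21 were 230.5 to 391965.5 bp apart with a median of 5489 bp, against 117.4 kb over the rest of the Avruch list. Of the 122 distances, 78 were under 10 kb and 30 over 50 kb. TEAD1 neighbours were 255 to 215308 bp apart (median 13222 bp, against 22.9 kb over the rest of that list). Santa Cruz neighbours were 470.5 to 1135222 bp apart (median 173850 bp, against 294.6 kb for the rest). The Avruch median was thus below that of the other lists, although TEAD1 gave more peaks there.

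**Figure D4:**
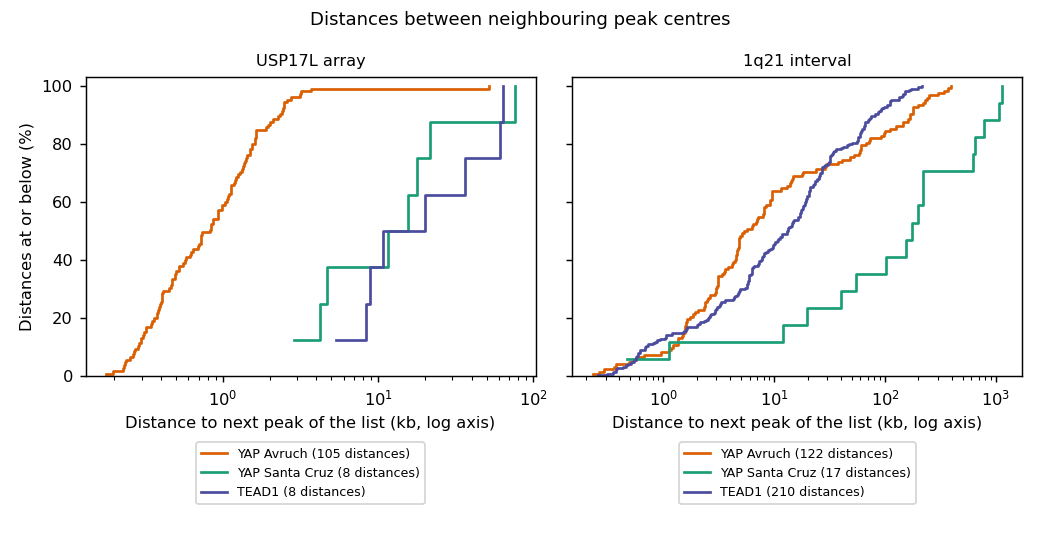
Share of neighbour distances at or below a given length (y axis, percent) by distance between the centres of neighbouring peaks of 1 list (x axis, kb, log scale) in the USP17L array (left) and the 1q21 interval (right). The medians are 830.5 bp for Avruch, 13542 bp for Santa Cruz and 15417 bp for TEAD1 in the array, and 5489, 173850 and 13222 bp at 1q21.

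Joining peaks of all lists with gaps of at most 10 kb gave 38 runs of at least 3 peaks at 1q21, with a median of 4 peaks. They held 101 of the 123 Avruch peaks (82.11%), 14 of the 18 Santa Cruz peaks and 128 of the 211 TEAD1 peaks (60.66%). Avruch and TEAD1 peaks stood together in 21 runs and TEAD1 peaks alone in 13. The 5 fullest runs held 68 Avruch peaks (55.28%) and 28 TEAD1 peaks (13.27%).

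The fullest run, chr1:148241553-148346159, held 22 Avruch and 12 TEAD1 peaks over 104.6 kb. Next were chr1:144158851-144224155 with 18 Avruch and 6 TEAD1 peaks, and chr1:145309611-145376114 with 18 Avruch, 3 Santa Cruz and 2 TEAD1 peaks. A shorter run at chr1:147994258-148025901 had 7 Avruch and 3 TEAD1 peaks, and one at chr1:148577081-148605452 had 3 and 5. Avruch scores in the fullest run were 50.43 to 110.42 with a median of 64.58, near the 63.8 of the rest of the list. In the run at chr1:147994258-148025901 the Avruch median was 86.44, and that run held the best Avruch peak of 1q21.

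Some distances between Avruch peaks at 1q21, in steps of 1.6 kb up to 16 kb, were more frequent than others. Of 318 pairs within 20 kb, the bins from 1.4 to 1.6 kb, 3 to 3.2 kb and 4.6 to 4.8 kb had 7, 7 and 10 pairs. Each further step of 1.6 kb, up to the bin from 15.8 to 16 kb, had 6, 9, 8, 6, 9, 12 and 8. The steps did not go on beyond that: the bins from 17400 to 17600 bp and from 19000 to 19200 bp had 3 pairs each. The other 85 bins from 1 kb up had a median of 2 and a highest value of 7. These 10 bins, chosen after the distances had been seen, took 25.79% of the pairs and make up 10% of all bins. They took 10.72% of the pairs of the rest of the Avruch list on placed chromosomes, 13.17% in the USP17L array and 14.35% of TEAD1 pairs at 1q21. The fullest bin at 1q21, from 14.2 to 14.4 kb, and the runner-up, from 4.6 to 4.8 kb, are also among the fullest of the array.

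The 3 fullest runs supplied most of the pairs from which the 10 bins were chosen, so their shares are no independent sign of the steps. In the fullest run 33 of 90 pairs fell in the 10 bins (36.67%), in the run at chr1:144158851-144224155 24 of 69 (34.78%), and in the run at chr1:145309611-145376114 18 of 93 (19.35%). Without these 3 runs 6 of 65 pairs did (9.231%). In the run at chr1:145309611-145376114 the 10 bins had a median of 2 pairs and at most 3, while another bin had 4. Of the neighbour distances, 9 of 21 in the fullest run, 6 of 17 in the run at chr1:144158851-144224155 and 4 of 17 in that at chr1:145309611-145376114 fell in the 10 bins. Those of the fullest run that did included 1552, 3131, 4785.5 and 9446.5 bp, and those that did not included 1342, 2547, 3485 and 7036 bp.

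The lists were compared peak by peak at 1q21. Of the 18 found with Santa Cruz, 1 met an Avruch peak (5.556%, 0.9875 to 25.76), where 28.2% of that list did, at chr1:145362306-145362488 inside the third-fullest run. Of the 123 Avruch peaks, 1 overlapped a Santa Cruz peak (0.813%, 0.1437 to 4.462, whole list 8.16%) and 5 overlapped a TEAD1 peak (4.065%, 1.749 to 9.164, whole list 19.4%). The Avruch peaks with TEAD1 were chr1:144196969-144197105, chr1:144223932-144224155, chr1:145969314-145969426, chr1:148314016-148314234 and chr1:149398715-149398909, with scores of 51.97 to 80.75. Thus 117 of the 123 Avruch peaks met neither other list (95.12%, 89.77 to 97.75), where 77.6% of the whole list did. Of the Santa Cruz peaks 12 of 18 met neither (66.67%, 43.75 to 83.72, whole list 59.8%), and of the TEAD1 peaks 202 of 211 (95.73%, 92.09 to 97.74, whole list 96.4%), both near the share of the whole list. Of the 211 TEAD1 peaks, 5 overlapped an Avruch peak (2.37%, 1.016 to 5.426, whole list 3.11%) and 4 a Santa Cruz peak (1.896%, 0.7396 to 4.772, whole list 1.14%).

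No peak of either interval overlapped peaks of both other lists. For Avruch these were 0 of 106 in the array and 0 of 123 at 1q21, with Wilson upper limits of 3.497% and 3.029%, where 5.2% of the whole list did. Santa Cruz peaks were few, 9 and 18, which limits how many Avruch peaks could meet both lists. For Santa Cruz they were 0 of 9 and 0 of 18, with upper limits of 29.91% and 17.59%, where 18.9% of the whole list did. For TEAD1 they were 0 of 9 and 0 of 211, with upper limits of 29.91% and 1.788%, both above the 0.66% of the whole list. Of the Santa Cruz peaks at 1q21, 5 overlapped a TEAD1 peak (27.78%, 12.5 to 50.87, whole list 30.9%). A pair of them, chr1:148853754-148854030 and chr1:148854144-148854581, lay inside a single TEAD1 peak 2026 bp wide, chr1:148853518-148855543 (score 358.05). The others were at chr1:143743252-143743554, chr1:144520367-144520531 and chr1:147532683-147532841.

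None of the 3 highest-scoring peaks of each list at 1q21 overlapped a peak of another list. Over the whole lists, 77.6% of Avruch, 59.8% of Santa Cruz and 96.4% of TEAD1 peaks met neither other list. The best Avruch peaks were chr1:148010570-148011095 (score 114.35), chr1:148264462-148264963 (110.42) and chr1:145335336-145335712 (104.59). The nearest TEAD1 centres were 10.58, 1.827 and 29.65 kb from these, and the nearest Santa Cruz centres 292.2, 546 and 12.79 kb. The best Santa Cruz peaks were chr1:144575284-144575549 (79.12), chr1:147718572-147718768 (69.05) and chr1:149007875-149008334 (68.91), with their nearest Avruch centres 7.82, 9.64 and 3.442 kb away. Their nearest TEAD1 centres were 12.7, 2.292 and 21.11 kb away. TEAD1 peaks reached 601.64 at chr1:145164911-145165423, 523.89 at chr1:145091897-145092988 and 481.05 at chr1:145096965-145097393. The nearest Avruch centres were 72.83, 32.93 and 37.67 kb from these, and the nearest Santa Cruz centres 156.4, 229.2 and 224.4 kb.

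Median scores at 1q21 were 62.21 for Avruch (63.8 for the rest of the list) and 68.47 for TEAD1 (67.11). For Santa Cruz the median was 53.9 (59.18 for the rest), and 6 of its 18 peaks exceeded the list's median. Median widths were 190 bp for Avruch (149 bp for the rest), 234 bp for Santa Cruz (167 bp) and 308 bp for TEAD1 (274 bp). How reads that match several copies equally well were placed is not given in the sources used here. Whether a peak belongs to the copy it was called in was not tested.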

How the data were processed

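ChIP-seq peaks of 3 libraries of H69 cells were analysed, 1 library per antibody, named by the labels or, for Avruch, by elimination from the design text. Reads were aligned with Bowtie2 to build hg19, per the submitters' processing notes, and MACS stands in the names of the peaks. Not given in the sources used here are its settings, its control and the handling of duplicate or multiply matching reads. Each deposited list has 5 columns, the last a score of the authors per peak with no stated unit. Depth is unknown. Start positions were raised by 1, as BED files count from 0. Members were chosen by centre, and overlap meant at least 1 bp. Runs, pair distances and folded centres were computed with Python 3.11.15, pandas 2.3.3, NumPy 2.4.6 and SciPy 1.17.1, and promoters were aligned with Biopython 1.88. The code was checked on made-up peaks of known spacing, set at fixed places of a repeat. They are more regular than those of the array, so the check does not cover a search in peaks as scattered as these. Shares have Wilson 95% intervals, and without replicates no test was made. The members, lists and settings were chosen with earlier results of these data known. Peaks named one by one are the 3 highest-scoring of each list and interval, all Santa Cruz and TEAD1 peaks of the array, and the 5 fullest runs, beside every peak shared between lists, a set added after the values were seen. No USP17L sequence was used here.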

Additional observations from a re-analysis of the deposited data

How the results depend on the processing

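Of 112 alternative values for 38 results, 88 stayed within their limits: 1.5 times for counts, 100 bp for the repeat distance, and the 95% interval for shares and medians. The limits are wide where a share rests on 9 peaks, so 88 does not measure how firm the results are. The share of TEAD1 peaks of the array with an Avruch peak, 44.44%, was counted as staying at 22.22%, with 50% of both peaks required. Keeping the upper 50% of scores removes peaks by design. The values that moved follow, and their cause was otherwise not tested. Joining peaks with gaps of at most 1 kb left 34 Avruch peaks in the array, with a median neighbour distance of 3358 bp and a repeat distance of 3110 bp, and gave TEAD1 a median distance of 18104 bp at 1q21. The repeat distance also moved when searched over 9 peaks, to 3663 bp for Santa Cruz and 4049 bp for TEAD1. Edges in place of centres gave 550 bp for the Avruch median in the array. The upper 50% of scores left 69 Avruch and 2 TEAD1 peaks in the array and 55 Avruch, 6 Santa Cruz and 112 TEAD1 peaks at 1q21, with 19 runs. In the array, overlaps were then 0% between Santa Cruz and TEAD1 from either list and 1.449% for Avruch with TEAD1, and the Avruch median distance was 1240 bp. At 1q21, 0.8929% of TEAD1 peaks then overlapped an Avruch peak, and median distances were 832014 bp for Santa Cruz and 24322 bp for TEAD1. With 50% of both peaks required, overlaps at 1q21 were 5.556% for Santa Cruz with TEAD1, 0.813% for Avruch with TEAD1, and 0.4739% for TEAD1 with either YAP list. No paired analysis was possible because each antibody has 1 library.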

Other observations

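At a score of 300 or more, a limit chosen after the values were seen, 9 TEAD1 peaks stood in the 1q21 interval, of which 4 were at least 1 kb wide and 1 overlapped a YAP peak. Of the whole TEAD1 list, whatever the score, 96.4% met no YAP peak. The 9 strong peaks were not set beside TEAD1 peaks of like score elsewhere. Whether strong peaks lacked YAP more or less often was therefore not tested. TEAD1 peaks at least 1 kb wide numbered 8 of 211 (3.791%), against 1.065% of the rest of the TEAD1 list. Of these 8, 4 lay between 145075178 and 145210480 on chromosome 1, with scores of 232.83, 148.14, 523.89 and 365.26. No Avruch or Santa Cruz peak overlapped these 4. The run at chr1:145075178-145097393 held 6 TEAD1 peaks and no peak of another list. None of the 123 Avruch and 18 Santa Cruz peaks of 1q21 was 1 kb wide or more, where 2.361% and 8.194% of the rest of these lists were.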
